A study of Mus musculus with 8 samples.

Results

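The 10 genes described here encode the main heat-inducible and constitutive protein chaperones of the mouse cytosol and mitochondria, *Hspa1a*, *Hspa1b*, *Hsph1*, *Hsp90aa1*, *Hsp90ab1*, *Dnajb1*, *Dnaja1*, *Hspa8*, *Hspe1* and *Hspd1*. They were taken by symbol from the 32285 genes of the deposited count tables, and all 10 were present once. They were chosen by their high UMI counts in 1 cluster of macrophages of an earlier clustering of these same cells, so their differences between cells are given below as a description, without a test. Single CD45+ immune cells were sorted from mammary tumors on day 18 and sequenced with a droplet-based 3′ method that counts unique molecular identifiers (UMIs). The tumors came from E0771, a mammary carcinoma line of C57BL/6 mice, in its parental form (2 mice), or from E0771-Res1 (3 mice) and E0771-Res2 (3 mice), 2 variants that the authors derived from E0771 tumors relapsing after paclitaxel and anti-PD-1. The mice were C57BL/6 females with orthotopic tumors of 1 line each, and the labels name no drug given to them. The tumors of every group went through the same warm collagenase digestion before sorting, whose part in the levels was not tested. Another parental mouse was not analysed here, so the parental group rests on 2 animals and each resistant line is 1 derived line.

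Chaperones bind unfolded proteins and help them fold, refold or reach degradation. The Hsp70 proteins (*Hspa1a*, *Hspa1b* and the constitutive *Hspa8*) work with Hsp40 co-chaperones (*Dnajb1*, *Dnaja1*) that deliver clients and with Hsp110 (*Hsph1*) that exchanges nucleotide. The Hsp90 proteins (inducible *Hsp90aa1*, constitutive *Hsp90ab1*) hold kinases and receptors in an active state, and Hsp60 with Hsp10 (*Hspd1*, *Hspe1*) forms the folding chamber of mitochondria. Heat and other protein-damaging stress activate heat shock factor 1, which binds heat shock elements, inverted repeats of the letters GAA in promoters. In tumors these genes can be induced by hypoxia and nutrient lack, and in tissue processing by warm digestion, which also induces immediate early genes such as *Jun* and *Fos*. The 10 genes were therefore read beside lists of 30 hypoxia and glycolysis genes and 24 immediate early genes.

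The promoters of 3 members are shown because they carry the heat shock element letters and because those of *Hspa1a* and *Hspa1b* are nearly alike. Each is the 250 bases before the transcription start in RefSeq on GRCm38.p6, with the start at the right end. Capitals mark the letters GAANNTTC or TTCNNGAA, 2 facing repeats, each of which reads the same on both strands. The windows lie at chr17:34972157-34972406 (minus strand) for *Hspa1a*, chr17:34959239-34959488 (minus strand) for *Hspa1b* and chr1:55087898-55088147 (plus strand) for *Hspe1*.
Hspa1a: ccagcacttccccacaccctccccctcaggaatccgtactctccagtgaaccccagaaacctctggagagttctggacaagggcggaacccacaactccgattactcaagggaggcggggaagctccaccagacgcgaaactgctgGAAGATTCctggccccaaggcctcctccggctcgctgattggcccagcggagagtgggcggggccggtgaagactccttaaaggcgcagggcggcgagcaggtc
Hspa1b: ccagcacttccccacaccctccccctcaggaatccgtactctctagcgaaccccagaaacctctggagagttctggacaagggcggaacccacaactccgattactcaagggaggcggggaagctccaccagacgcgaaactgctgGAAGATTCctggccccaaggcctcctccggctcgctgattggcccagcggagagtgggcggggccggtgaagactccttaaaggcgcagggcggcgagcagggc
Hspe1: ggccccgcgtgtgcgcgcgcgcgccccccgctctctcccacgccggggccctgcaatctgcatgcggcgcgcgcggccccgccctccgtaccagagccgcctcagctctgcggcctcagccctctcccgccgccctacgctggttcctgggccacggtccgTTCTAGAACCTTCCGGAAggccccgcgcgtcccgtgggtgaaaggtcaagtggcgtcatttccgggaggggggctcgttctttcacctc
The *Hspa1a* and *Hspa1b* windows had 247 of 250 bases in common, and both held GAAGATTC 96 bases before the start. *Hspe1* and *Hspd1* face away from each other, with gene bodies that overlap by 112 bases, and the same run of 18 bases stood 71 bases before the *Hspe1* start and 126 before 1 of 2 *Hspd1* starts. The *Hspd1* window at the outer end of its gene body held no match. That run is a series of repeats that alternate in direction, and it holds 3 overlapping pairs and 2 overlapping triples of them. Of the 7 members with an entry in the RefSeq promoter table, 6 held the motif of 2 repeats in at least 1 window (all but *Dnajb1*), against 14.5% of 27025 genes counted the same way. A gene has a window for each start in the table. A motif of 3 alternating repeats was held by *Hspe1* and *Hspd1* and by 0.514% of all genes. *Hsph1* held TTCTCGAA in both of its windows and *Dnaja1* GAAAATTC in 1 of 3. The same motif of 2 repeats stood in 3 of 27 hypoxia and glycolysis genes and in 2 of 20 immediate early genes with an entry. These matches describe letters and not binding.

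*Hspa1a* (ENSMUSG00000091971, chr17:34969190-34972156) and *Hspa1b* (ENSMUSG00000090877, chr17:34956436-34959238) are neighbours 9951 bases apart on the minus strand. Their bodies are alike, but of the 410 stretches of 91 bases in the last 500 bases of each transcript, where 3′ reads fall, none occurred in the other, so reads from the transcript ends could be assigned to either gene. *Hspd1* and *Hspe1* lie on opposite strands. Levels below are the UMIs of a gene summed over the named cells of a mouse. They are scaled to the total UMIs of those same cells in the genes used (counts per 1000000, CPM). They compare mice or cell classes for 1 gene and not levels between genes.

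Of 11430 deposited cells, 10605 passed the filter of 500 to 6000 genes and under 10% mitochondrial UMIs (1727 parental, 3561 E0771-Res1 and 5317 E0771-Res2 cells). Totals ran from 5036667 to 18894504 counts per mouse. The median per cell was 5589 to 7001 UMIs in the E0771-Res2 mice and 7631 to 8160 in the other 5, and no cell barcode was shared between mice. Cells were divided by marker UMIs into 613 lymphoid cells, 2446 C1qa-high myeloid cells (10 or more UMIs of *C1qa*, a complement gene of tumor macrophages), 4700 C1qa-low myeloid cells (at most 1 UMI) and 2062 between these. In cells thinned to 2000 UMIs, *Cd3e* of T cells was found in 50.5% of lymphoid, 1.48% of C1qa-high and 1.71% of C1qa-low cells. *C1qb* was found in 34.7%, 99.6% and 32.5% and the monocyte gene *Ly6c2* in 41.3%, 56.7% and 81.2% of these classes. *Lyz2* of myeloid cells was found in 62.5% of lymphoid cells too, and the summed myeloid markers of lymphoid cells stood at 2325 to 3129 CPM per mouse, so lymphoid values include some RNA of myeloid kind, whose part in them was not tested.

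Lymphoid cells carried more of 7 of the 10 transcripts than C1qa-low myeloid cells did in 8 of 8 mice, as 45.5% of all genes with at least 80 counts in both classes did, whereas *Hspa1a* and *Hspa1b* had no such order. The median ratio of lymphoid to C1qa-low cells over the mice was 3.02 for *Hspd1*, 2.87 for *Hsph1*, 2.15 for *Hsp90ab1*, 1.95 for *Hspe1*, 1.85 for *Dnajb1*, 1.68 for *Dnaja1* and 1.54 for *Hsp90aa1*. The constitutive Hsp70 *Hspa8* had a ratio of 1.04 and was higher in 4 of 8 mice. The inducible pair had ratios of 0.538 (*Hspa1a*, higher in 2 of 8 mice) and 0.675 (*Hspa1b*, higher in 3 of 8). The summed other chaperones (1.26) and the summed hypoxia and glycolysis genes (1.20) were also higher in lymphoid cells of 8 of 8 mice, and the summed immediate early genes (0.722) were lower in 8 of 8.

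Between the myeloid classes the mitochondrial pair was higher and the Hsp40 pair lower in C1qa-high cells of each mouse. C1qa-high cells had more *Hspd1* (median ratio 1.48), *Hspe1* (1.41), *Hsph1* (1.35) and *Hsp90ab1* (1.14) than C1qa-low cells in 8 of 8 mice. They had less *Dnajb1* (0.835), *Dnaja1* (0.881) and *Hspa8* (0.857) in 8 of 8. These are 4 members higher and 3 lower in every mouse, where 24.9% and 13.6% of all genes were. *Hspa1a* (0.709) and *Hspa1b* (0.710) were lower in C1qa-high cells of 7 mice and higher in E0771-Res1 replicate 2. *Hsp90aa1* (0.981) was split, with 3 mice higher and 5 lower. The summed immediate early genes were lower in C1qa-high cells of 8 of 8 mice (median ratio 0.776), and the summed hypoxia and glycolysis genes were higher in 4 and lower in 4 (0.971). Ratios of this kind rest on cells that were gated by other genes, and no test was made. The *C1qa* gate takes UMIs without scaling, and the classes differed in depth. Median UMIs per cell in the genes used were 7716 in C1qa-high and 5298.5 in C1qa-low cells. The part of depth in these ratios was not tested.

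**Figure D1:**
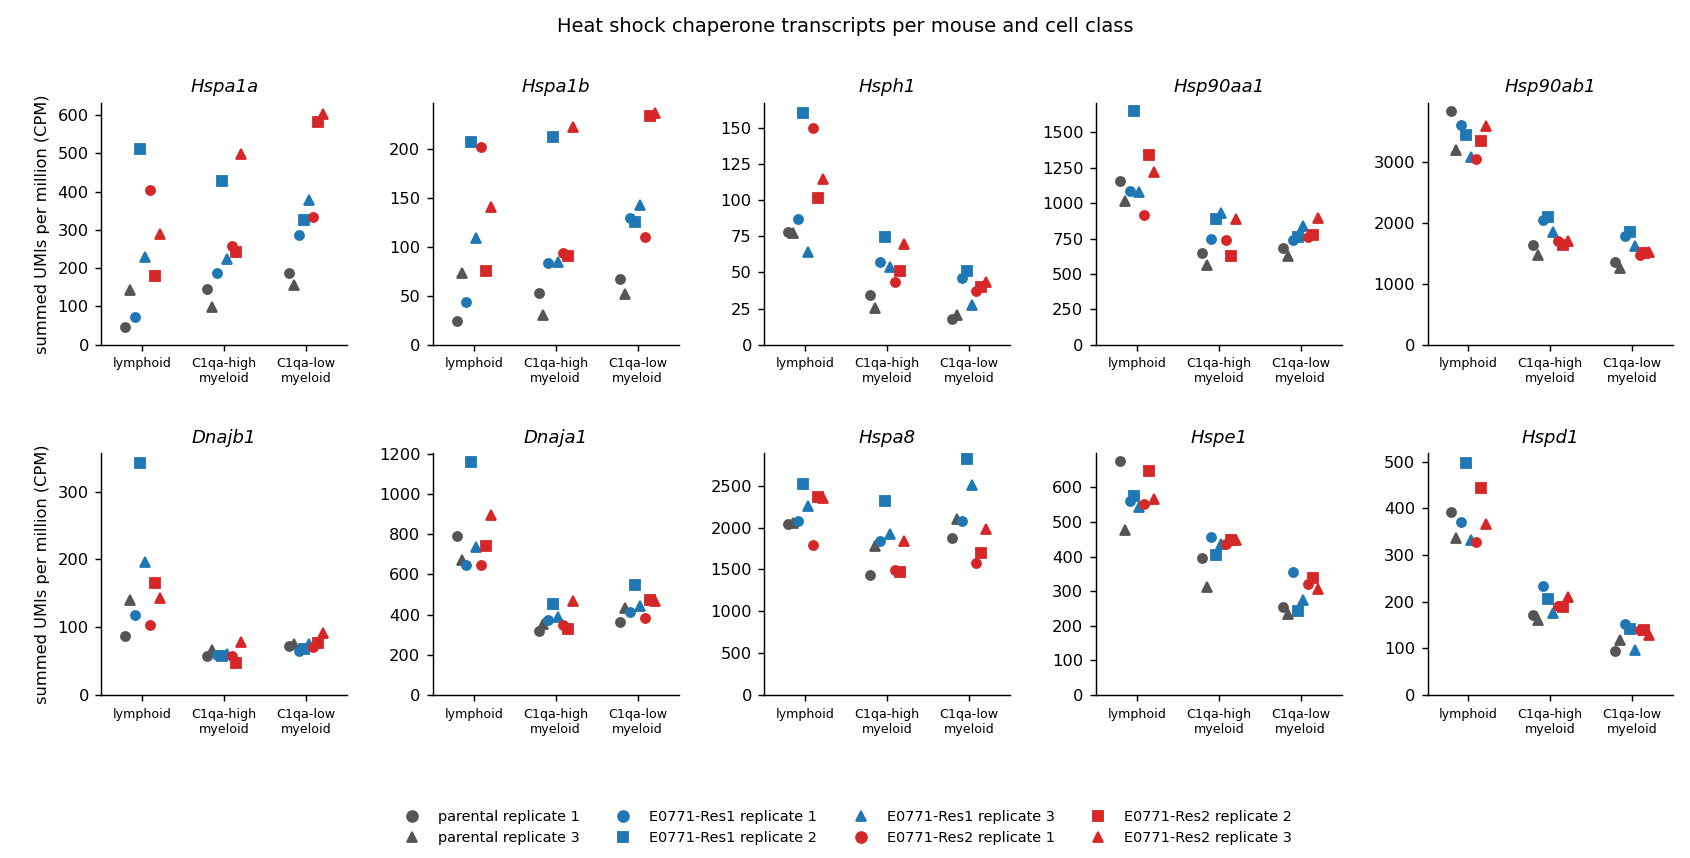
Level of each chaperone gene in CPM (y axes, starting at 0, each with its own scale) in lymphoid, C1qa-high and C1qa-low myeloid cells, with 1 point per mouse (gray parental, blue E0771-Res1, red E0771-Res2). *Hspd1* and *Hsp90ab1* are higher in lymphoid than in C1qa-low cells in all 8 mice, and for *Hspa1a* in C1qa-low cells both parental mice (188 and 156 CPM) lie under the 6 resistant mice (287 to 604 CPM).

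The next comparison asks whether chaperone transcripts of tumor-infiltrating immune cells differ between the tumor lines. In C1qa-low myeloid cells the inducible pair and *Hsph1* were higher in E0771-Res2 than in parental tumors. *Hspa1a* stood at 188 and 156 CPM for the parental mice, 287, 325 and 379 CPM for those with E0771-Res1 and 335, 581 and 604 CPM for those with E0771-Res2. The parental mice were the lowest, and the 2 resistant lines overlapped each other. *Hspa1b* stood at 67.0 and 51.8 CPM (parental), 129, 125 and 142 CPM (E0771-Res1) and 110, 233 and 236 CPM (E0771-Res2). *Hsph1* stood at 17.9 and 20.2 CPM (parental), 46.3, 51.2 and 27.6 CPM (E0771-Res1) and 37.0, 40.2 and 43.7 CPM (E0771-Res2). For all 3 genes no resistant mouse fell to the parental range. E0771-Res2 replicates 2 and 3 also had the lowest median UMIs per kept cell (5677.5 and 5589, parental 8112 and 8058). Their median mitochondrial shares were the highest (1.74% and 1.67%, parental 1.44% and 1.38%). Median depth in the E0771-Res1 mice was 7631 to 8160 UMIs. The part of depth and cell quality in the differences between lines was not tested.

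Against parental tumors, E0771-Res2 gave a log2 change of 1.54 ± 0.21 (SE) for *Hspa1a* (adjusted p = 0.0014), 1.66 ± 0.26 for *Hspa1b* (adjusted p = 0.00286) and 1.07 ± 0.23 for *Hsph1* (adjusted p = 0.0168; edgeR's quasi-likelihood test, n = 2 and 3 mice, Benjamini-Hochberg adjustment over 9769 genes). These 3 of 10 members passed an adjusted p of 0.05, where 4.17% of all genes did. The members were chosen by their counts in a cluster of these same cells, and the share of each line in that cluster is not given. The choice could therefore favor a line, and its part in the calls was not tested. Here and below, p-values of members between lines, and their counts beside those of all genes, are read as a description. The other 7 did not pass. Among them, *Hspe1* (log2 change 0.38, adjusted p = 0.102) and *Hsp90aa1* (0.29, adjusted p = 0.165) had the smallest adjusted p in the edgeR test. With parental replicate 3 left out, *Hspa1a* alone of the 10 passed, and *Hspa1b* had an adjusted p of 0.0607 (edgeR). *Hsph1* lost its call without either parental mouse (adjusted p = 0.223 and 0.0950 in edgeR), without E0771-Res2 replicate 3 (0.0783) and with *C1qa* gated per 10000 UMIs (0.103).

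Over all kept cells *Hspa1a* ran from 175 and 161 CPM in parental through 215, 375 and 301 CPM in E0771-Res1 to 309, 404 and 553 CPM in E0771-Res2 mice. E0771-Res2 differed from parental by a log2 change of 1.32 ± 0.25 (SE) for *Hspa1a* (adjusted p = 0.0135) and 1.39 ± 0.26 for *Hspa1b* (adjusted p = 0.0131, edgeR), so 2 of 10 members passed, where 4.35% of all genes did. *Hsph1* did not pass, with a log2 change of 0.74 (adjusted p = 0.0597, edgeR). Without parental replicate 1, and likewise without parental replicate 3, 0 members passed (adjusted p of *Hspa1a* 0.13 and 0.157, edgeR).

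In C1qa-high cells the same 3 genes had log2 changes of 1.41 (*Hspa1a*, adjusted p = 0.065), 1.63 (*Hspa1b*, adjusted p = 0.111) and 0.82 (*Hsph1*, adjusted p = 0.104) in E0771-Res2 against parental, and 0 of 10 members passed in edgeR, where 2.11% of all genes did. Unadjusted, 5 members and 1376 of all 9293 genes had p under 0.05 in edgeR, and DESeq2 called 0 members. *Hspa1a* stood at 146 and 97.2 CPM (parental), 188, 428 and 224 CPM (E0771-Res1) and 257, 242 and 499 CPM (E0771-Res2). E0771-Res1 replicate 2 and E0771-Res2 replicate 3 stood above the rest. In lymphoid cells *Hspa1a* was scattered, with 45.5 and 143 CPM (parental), 72.4, 510 and 228 CPM (E0771-Res1) and 403, 180 and 290 CPM (E0771-Res2), from 28 to 132 UMIs per mouse. The groups overlapped, and E0771-Res2 against parental gave a log2 change of 1.87 (adjusted p = 0.506, edgeR). No member passed there in edgeR (0.124% of all genes did) or in DESeq2. An unadjusted p under 0.05 was found there for 3 members and 384 of all 6474 genes (edgeR). With no filter on low counts edgeR called 2 there (54 of all genes) and 3 in C1qa-high cells (594 of all genes). In C1qa-high cells a fit of the 2 groups alone called 2 (422 of all genes), and the *C1qa* gate per 10000 UMIs called 1 (277 of all genes). Over all kept cells the other members spanned smaller ranges over the mice, such as 645 to 921 CPM for *Hsp90aa1*, 1522 to 2067 CPM for *Hsp90ab1*, 384 to 553 CPM for *Dnaja1* and 149 to 208 CPM for *Hspd1*. *Dnajb1* of lymphoid cells was highest in E0771-Res1 replicate 2, at 342 CPM.

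E0771-Res1 against parental gave 0 members in all 4 sets of cells in edgeR, where 0.0354% of all genes passed over all kept cells, 0.0307% in C1qa-low, 0.215% in C1qa-high and 0.0463% in lymphoid cells. In C1qa-low cells *Hspa1a*, *Hspa1b* and *Hsph1* had log2 changes of 0.94, 1.14 and 1.13 (adjusted p = 0.131, 0.131 and 0.114, edgeR). An unadjusted p under 0.05 was found for 7 members over all kept cells, 6 in C1qa-low, 8 in C1qa-high and 3 in lymphoid cells. Of all genes, 1188 of 11313, 823 of 9769, 1136 of 9293 and 292 of 6474 had such a p in turn (edgeR). DESeq2 called 1 member in each of the first 3 sets (*Hsph1* over all kept cells and in C1qa-high cells, *Hsp90ab1* in C1qa-low cells) and 0 in lymphoid cells. Of all genes DESeq2 called 69 over all kept, 35 in C1qa-low and 79 in C1qa-high cells. The zeros depended on the setting. With no filter on low counts edgeR called 3 members over all kept cells, 3 in lymphoid, 5 in C1qa-high and 4 in C1qa-low cells. That setting also called more of all genes, at 243, 42, 387 and 185 in turn, against 4, 3, 20 and 3 with the filter. A fit of the 2 groups alone called 2 members and 5 of all genes in C1qa-low cells. Leaving out E0771-Res1 replicate 3 gave 2 calls in C1qa-high and 1 in C1qa-low cells, and leaving out E0771-Res2 replicate 1 gave 2 in C1qa-low cells. Counts over all genes are not given for these fits, so they do not show whether the members or the whole fit moved.

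Between the 2 resistant lines the constitutive *Hspa8* was the member that passed. In C1qa-low cells it stood at 2083, 2817 and 2513 CPM (E0771-Res1) and 1575, 1695 and 1984 CPM (E0771-Res2), with the parental mice at 1871 and 2106 CPM. The lines did not overlap, and the log2 change in E0771-Res2 was -0.52 ± 0.13 (SE, adjusted p = 0.0324, edgeR), with 1 of 10 members called where 3.76% of all genes were. The call was lost without E0771-Res1 replicate 2 (adjusted p = 0.0804), E0771-Res1 replicate 3 (0.0855), E0771-Res2 replicate 1 (0.135) or E0771-Res2 replicate 2 (0.0706), and in a fit of these 2 groups alone (0.0517, all edgeR). *Hspa1a* differed between the lines by 0.60 (adjusted p = 0.0785, edgeR). Over all kept cells, 0 members passed in edgeR (4.2% of all genes did), and DESeq2 called 2, with 506 of all genes. An unadjusted p under 0.05 was found there for 3 members and 2241 of all 11313 genes (edgeR). In C1qa-high cells 0 passed in edgeR (3.64% of all genes did) and 0 in DESeq2, and 2 members and 1588 of all 9293 genes had an unadjusted p under 0.05 (edgeR). In lymphoid cells 0 passed in edgeR (0.0309% of all genes did) and 0 in DESeq2, and 0 members and 329 of all 6474 genes had an unadjusted p under 0.05 (edgeR). With no filter on low counts edgeR called 3 members over all kept, 2 in C1qa-high and 3 in C1qa-low cells (928, 681 and 753 of all genes in turn).

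Counted without a model, all 6 resistant mice lay above both parental mice for 6 of 10 members in C1qa-high cells (7.41% of genes with at least 80 counts), 5 in C1qa-low cells (5.61%), 4 over all kept cells (5.89%) and 0 in lymphoid cells (3.06%). The members counted in C1qa-low cells were *Hspa1a*, *Hspa1b*, *Hsph1*, *Hsp90aa1* and *Hsp90ab1*.

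The other lists were read in the same fits. In C1qa-low cells of E0771-Res2 against parental tumors, 5 of 24 immediate early genes passed upwards (*Klf2* 1.5, *Jun* 1.08, *Dusp1* 0.81, *Klf6* 0.58 and *Atf3* 0.41 on the log2 scale) and 3 downwards (*Nr4a2* -1.46, *Nr4a3* -0.78 and *Socs3* -0.48). Over all 9769 genes, 182 passed upwards and 225 downwards. Of 30 hypoxia and glycolysis genes 0 passed upwards and 1 downwards (*Pfkp*, -0.48), and of 19 endoplasmic reticulum (ER) chaperone and unfolded protein response genes 0 passed. Of 25 other chaperone and co-chaperone genes only *Hspb1*, a small heat shock protein, passed (2.85 ± 0.68 SE, adjusted p = 0.0295, edgeR). *Hspb1* stood at 8.37 and 0 CPM (parental), 8.99, 5.33 and 7.27 CPM (E0771-Res1) and 17.0, 73.0 and 23.7 CPM (E0771-Res2). In C1qa-high cells 0 of 29 hypoxia genes passed. Of 23 immediate early genes, those that passed, *Ier2* and *Socs3*, were lower (-0.73 and -0.64), where 73 of all 9293 genes passed upwards and 123 downwards. In lymphoid cells *Fos* (0.97), *Jun* (1.12) and *Klf2* (1.17) were higher and *Nr4a2* (-0.99) lower, of 22 immediate early genes tested. Over all 6474 genes, 5 passed upwards and 3 downwards there. Summed neutrophil markers of C1qa-low cells ran from 113 to 355 CPM over the mice and were highest in E0771-Res2 replicate 2. Their part in these changes was not tested.

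Most cells had no *Hspa1a* or *Hspa1b* UMI, and a small share of cells held most of them. In cells thinned to 2000 UMIs, the 5% of cells with most *Hspa1a* held 71.7% of its UMIs (median of 8 mice, range 52.9 to 78.0%), and 19.3% of cells had at least 1. The same 5% share was 81.2% for *Hspa1b*, found in 10.7% of cells, and 81.6% for *Hsph1*, found in 6.78%. *Dnajb1* was found in a similar share of cells (13.6%) but its top 5% of cells held 46.3%. At the other end the top 5% held 17.9% of *Hsp90ab1* (89.7% of cells with a UMI) and 16.8% of *Hspa8* (93.2%), and 34.5% of the inducible *Hsp90aa1* (63.5%). *Hspd1*, *Dnaja1* and *Hspe1* lay between, at 39.5%, 29.4% and 28.4%. A rarer transcript is held by fewer cells through counting alone, so the share of cells with a UMI stands beside each value.

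**Figure D2:**
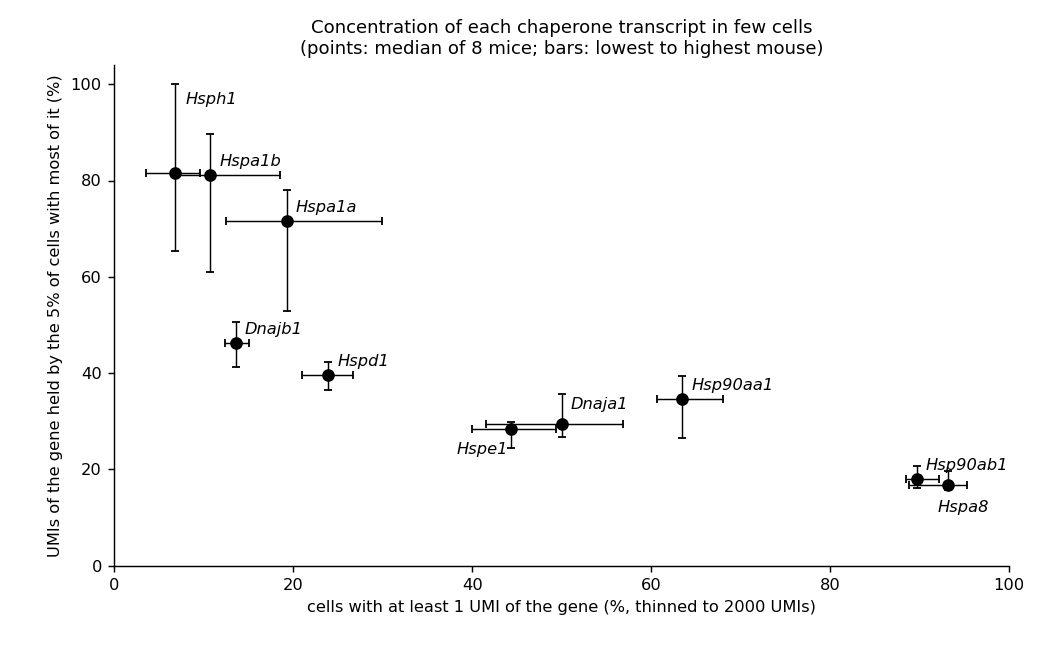
Share of a gene's UMIs held by the 5% of cells with most of it (y axis, %) against the share of cells with at least 1 UMI (x axis, %), all kept cells thinned to 2000 UMIs. Points are medians of 8 mice and bars run from the lowest to the highest mouse. *Dnajb1* and *Hspa1b* are found in similar shares of cells (13.6% and 10.7%) but differ in their top shares (46.3% and 81.2%).

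Cells with 5 or more *Hspa1a* and *Hspa1b* UMIs together among 2000 are called Hspa1-high, and those with 0 or 1 Hspa1-low. Of 9341 cells deep enough to thin, 6992 had 0 and 1182 had 1 (87.5% Hspa1-low together), 508 were Hspa1-high, and the highest held 89. Next to the threshold, 101 cells held 4 and 83 held 5. *Hspa1a* was found at 1 or more UMIs in 13.4% of lymphoid, 21.5% of C1qa-high and 21.0% of C1qa-low cells, and no class is known to lack it, so free RNA could not be set apart at 1 UMI. In each mouse 8.73 to 16.9% of kept cells were too shallow to thin and were left out.

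The Hspa1-high share in C1qa-low cells measured 1.85% and 2.72% (parental), 4.56%, 5.90% and 3.75% (E0771-Res1) and 5.02%, 9.24% and 10.6% (E0771-Res2). All 6 resistant mice lay above both parental mice, and the resistant lines overlapped. In C1qa-high cells it was 2.24% and 0% (0 of 108 cells, which allows a share of up to 2.78% by the limit of 3 counts, and 3.36% by the exact 95% interval) for parental mice, 2.82%, 6.25% and 3.28% for E0771-Res1 and 4.77%, 3.24% and 11.8% for E0771-Res2. E0771-Res2 replicate 3 stood apart. In lymphoid cells 14 cells in all were Hspa1-high, from 0% (0 of 93, up to 3.23% and 3.89% by the same limits) to 7.14% per mouse. The C1qa-low means by line were 2.29% ± 0.615 for 2 parental mice, 4.74% ± 1.09 for 3 mice with E0771-Res1 and 8.28% ± 2.90 for 3 with E0771-Res2 (mean ± SD over mice), and no test was made because the gate uses *Hspa1a* itself. Without thinning these means were 4.17%, 9.21% and 13.6% in C1qa-low and 8.37%, 13.7% and 16.2% in C1qa-high cells. C1qa-high cells were then above C1qa-low by 3.71 percentage points on average, in place of 1.15 points below (-1.15), so the order of the 2 classes turned with thinning and is not read.

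**Figure D3:**
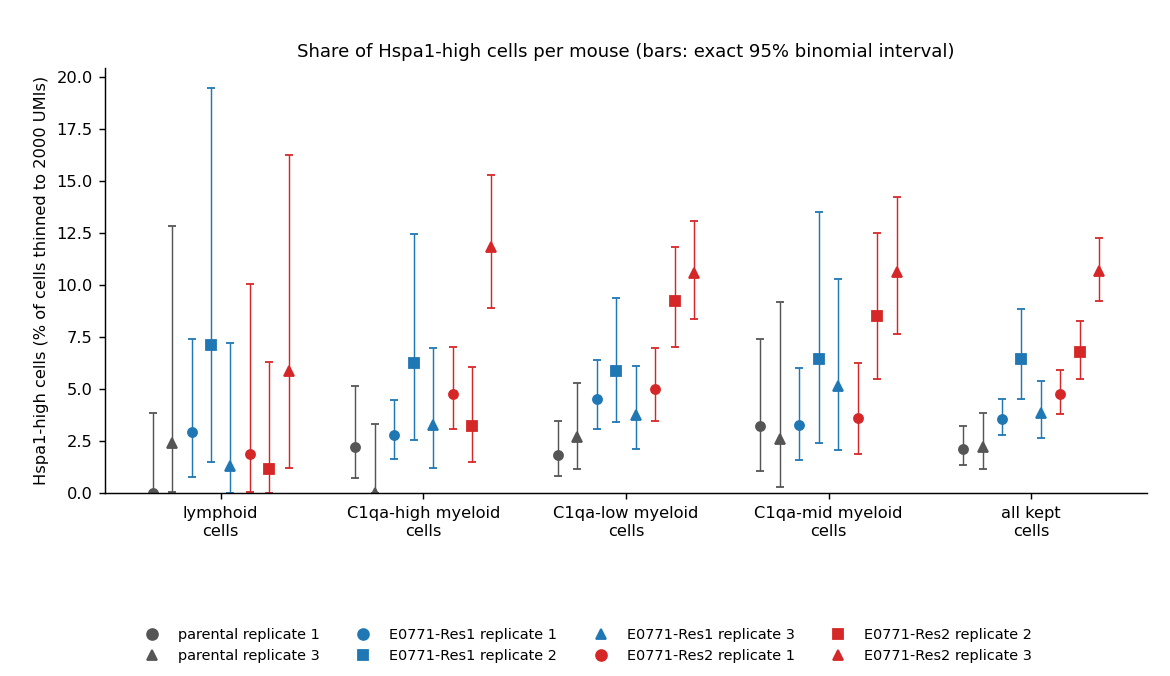
Share of Hspa1-high cells (y axis, % of cells thinned to 2000 UMIs) in each mouse by cell class, with exact (Clopper-Pearson) 95% binomial intervals as bars, which cover counting error only. In C1qa-low cells the parental shares (1.85% and 2.72%) lie under the 6 resistant ones (3.75% to 10.6%), and lymphoid intervals are wide because 14 cells are Hspa1-high in all.

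Whether chaperone-rich cells also carry hypoxia or immediate early transcripts was asked within mice, by summing Hspa1-high and Hspa1-low cells separately and fitting all genes with the mouse as a block. In C1qa-low cells 6 mice, all resistant, had the 10 Hspa1-high cells required (224 high cells, 15 to 74 per mouse, and 2831 low cells). As a description, all 10 members were higher in Hspa1-high cells, and their values did not overlap between the 2 states. The share of all genes without overlap was not counted. *Hspa1a* and *Hspa1b* make the gate, and the others were chosen by their counts in a cluster of these cells. The count of 10 is therefore not read as a result. *Hspa1a*, which set the gate, stood at 4156 to 8612 CPM (median 4445) against 57.8 to 110 CPM (median 67.2). *Hsp90aa1* stood at 2600 to 6618 CPM (median 3598) against 534 to 619 CPM (median 582), and *Hsph1* at 141 to 368 CPM (median 300.2) against 15.4 to 31.7 CPM (median 25.9). *Dnaja1* (log2 difference 2.27) and *Dnajb1* (1.97), the Hsp40 co-chaperones, came next. The log2 difference was 3.35 for *Hsph1* and 2.78 for *Hsp90aa1*, and 1.20, 1.16, 1.07 and 0.93 for *Hspd1*, *Hsp90ab1*, *Hspa8* and *Hspe1*.

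Part of the hypoxia and glycolysis genes rose in the Hspa1-high cells of the C1qa-low class. The lists were chosen with earlier results of these data known, so their counts and p-values here and below are read as a description. Of 28 tested, 13 passed upwards and 0 downwards, where 1.92% of all 7068 genes passed upwards, and their median log2 change was 0.54, against -0.02 over all genes. *Hilpda*, a lipid droplet protein induced by hypoxia, stood at 196 to 985 CPM (median 680) against 123 to 228 CPM (median 152), a log2 change of 2.00 ± 0.17 (SE, adjusted p = 2.78e-09, edgeR), with overlapping ranges but a rise in 6 of 6 mice. The glucose transporter *Slc2a1* stood at 144 to 314 CPM (median 199) against 63.6 to 93.1 CPM (median 69.0), with no overlap and a change of 1.56. *Ankrd37* (1.89), the mitophagy gene *Bnip3* (1.74) and the ER oxidase *Ero1l* (1.70) rose likewise, each in 6 of 6 mice. *Pgk1* (0.60) and *Ldha* (0.48) of glycolysis passed at smaller changes, and *Vegfa* did not (0.39, adjusted p = 0.677, edgeR), higher in 3 of 6 mice. With *C1qa* gated per 10000 UMIs the count of 13 fell to 8, while the genes called in all, in either direction, fell from 162 to 87.

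Part of the immediate early genes rose too. Of 23 tested, 7 passed upwards and 0 downwards, with a median log2 change of 0.33. *Jun* stood at 2163 to 3115 CPM (median 2458) against 746 to 2016 CPM (median 1106), with no overlap and a change of 1.17 ± 0.13 (SE, adjusted p = 2.81e-07, edgeR). *Klf2*, a transcription factor, changed by 1.17, *Jund* by 0.89, *Btg2* by 0.50 and *Klf6* by 0.46, and *Atf3* and *Ier3* (higher in 4 of 6 mice) passed too. *Btg2* and *Klf6* lost their calls in several settings, such as Hspa1-high cells taken from 10 UMIs (adjusted p = 0.0621 and 0.0565, edgeR). *Junb* did not pass (-0.07, adjusted p = 0.875, edgeR). The count fell to 3 without E0771-Res1 replicate 2 or without E0771-Res2 replicate 1, and to 4 without E0771-Res2 replicate 3, and the hypoxia count lay between 11 and 15 over the mice left out in turn. With *C1qa* gated per 10000 UMIs the immediate early count was 4, and with Hspa1-high cells taken from 10 UMIs it was 3. Genes called in all, in either direction, were 87 and 130 in turn, against 162 in the main fit. The 2 lists were not tested against each other.

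Chaperones outside the 10 members were tested in the same fit. Of 24 other chaperone and co-chaperone genes 5 passed upwards, among them *Hspb1* (4.32), *Bag3*, a co-chaperone of Hsp70 (1.88), and the Hsp40 *Dnajb4* (1.76). *Hspb1* was higher in 5 of 6 mice, with 5.86 to 777 CPM (median 98.9) against 1.75 to 15.4 CPM (median 5.43), and 777 CPM was reached in E0771-Res2 replicate 2. *Hspa4*, an Hsp110 relative, did not pass and was lower in 6 of 6 mice (-0.44, adjusted p = 0.198, edgeR). *Hsf1*, which encodes heat shock factor 1, had a log2 change of -0.09 (adjusted p = 0.978, edgeR). Of 18 ER genes 4 passed upwards, *Dnajb9* (1.49), the ER Hsp70 *Hspa5* (0.87), *Ddit3* (0.56) and *Atf4* (0.51), while the ER Hsp90 *Hsp90b1* did not (0.02, adjusted p = 0.982, edgeR). *Ddit3* and *Atf4* lost their calls in several settings, such as thinning to 1000 UMIs (adjusted p = 0.23 and 0.0811, edgeR). With *C1qa* gated per 10000 UMIs 3 other chaperones and 2 ER genes passed, where 87 of all genes were called in place of 162.

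**Figure D4:**
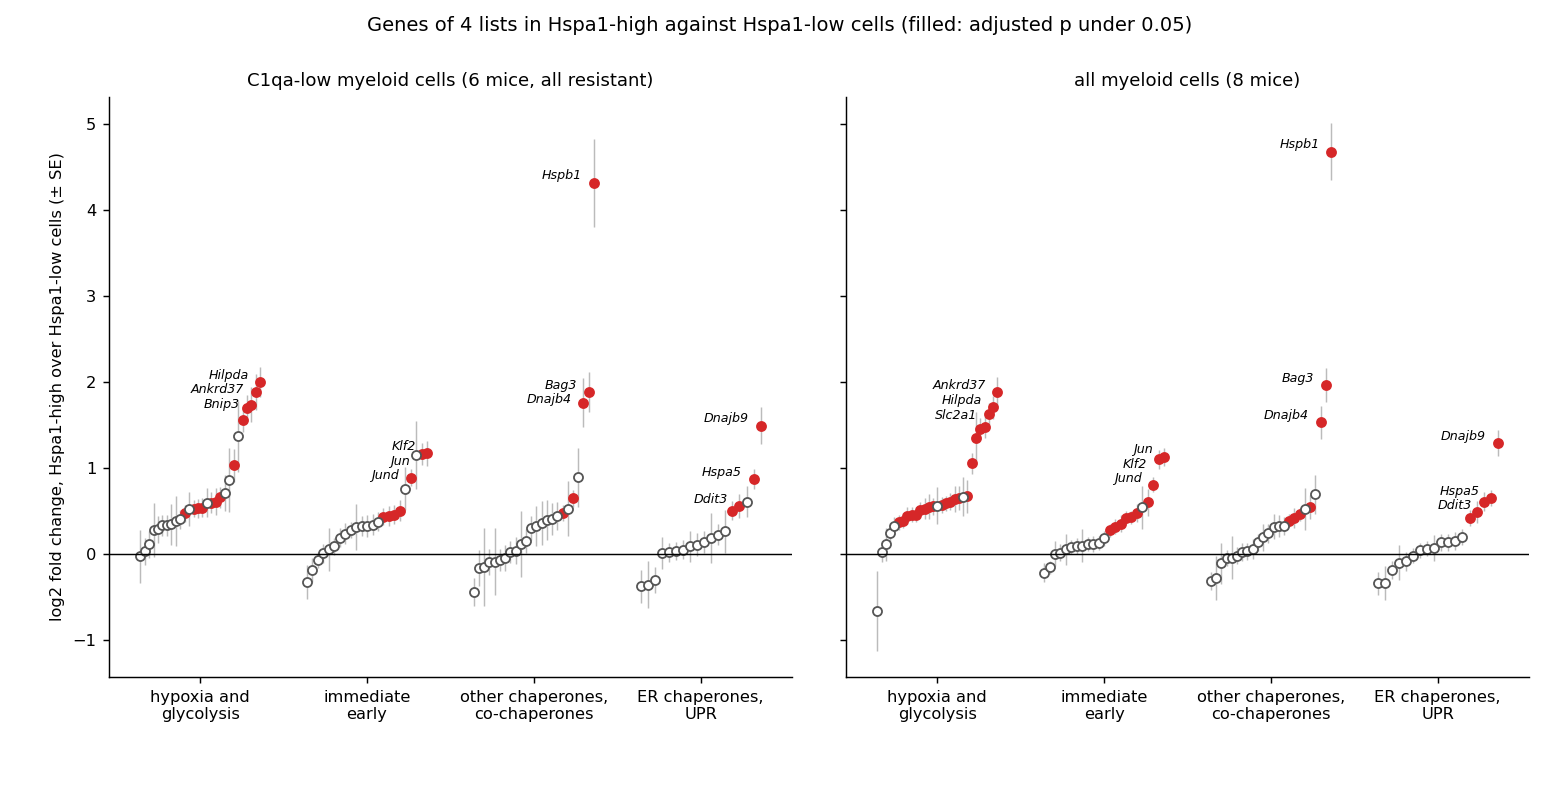
Log2 fold change of Hspa1-high over Hspa1-low cells with its SE (y axis) for each gene of 4 lists, ordered within a list, in C1qa-low myeloid cells (6 mice, left) and all myeloid cells (8 mice, right). Filled points passed an adjusted p of 0.05 in edgeR. On the left 13 of 28 hypoxia and glycolysis genes and 7 of 23 immediate early genes are filled, and *Hspb1* lies highest at 4.32.

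Pooling all myeloid cells brought in all 8 mice (463 Hspa1-high cells, 10 to 163 per mouse, and 7186 Hspa1-low cells), an analysis added after the data had been seen. There 22 of 29 hypoxia and glycolysis genes and 10 of 23 immediate early genes passed upwards, with 0 downwards in either, where 3.03% of all genes passed upwards. The immediate early count of 10 fell to 6 without E0771-Res2 replicate 1 and to 6 without E0771-Res2 replicate 2. With mouse and C1qa class as the block, 22 of 26 and 9 of 22 passed, where 4.73% of all genes did upwards. C1qa-high cells alone had 3 mice with enough Hspa1-high cells at 5 UMIs and could not be fitted there. At 3 or more UMIs (6 mice, 201 high and 1919 low cells), 8 of 27 hypoxia and glycolysis genes and 5 of 23 immediate early genes passed upwards, where 0.89% of all genes did, and the hypoxia count fell to 3 without E0771-Res2 replicate 3. Lymphoid cells had 0 mice with enough Hspa1-high cells at either gate.

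The Hspa1-high cells also differed in general measures. In all myeloid cells their median UMIs per cell were 5420 against 6769 in Hspa1-low cells (medians of 8 mice), their detected genes 2013 against 2336 and their mitochondrial share 1.57% against 1.32%. Summed myeloid markers stood at 22414 against 28351 CPM, lymphoid markers at 185 against 178 CPM, tumor and stroma markers at 20.9 against 23.3 CPM and neutrophil markers at 83.5 against 122 CPM. The part of depth and of cell state in the list results was not tested.

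Seen from the other side, cells in the top 10% of a list score were Hspa1-high more often than the rest for most lists. In all myeloid cells 13% of the top 10% for hypoxia and glycolysis genes were Hspa1-high against 3.40% of the rest (medians of 8 mice, higher in 7). For immediate early genes 8.95% of the top 10% were Hspa1-high against 3.87% of the rest (higher in 8). In C1qa-low cells the shares were 13.8% against 3.99% for hypoxia and 7.84% against 4.24% for immediate early genes, higher in 7 mice each. For other chaperones they were 14.2% against 3.75% (8 mice higher) and for ER genes 10.3% against 4.08% (7 mice higher). In C1qa-high cells they were 7.72% against 2.89% for hypoxia (7 mice higher) and 1.64% against 3.63% for immediate early genes (4 mice higher), with 7.45% against 2.86% for other chaperones (6 mice) and 4.10% against 3.63% for ER genes (3 mice). Over all thinned cells Spearman's rho of the Hspa1 UMIs with the list score was weak, with medians over mice of 0.108 in C1qa-low and 0.0791 in C1qa-high cells for immediate early genes (positive in 8 of 8 mice each) and 0.0597 and 0.0481 for hypoxia genes (positive in 5 of 8 each). Both measures come from the same cells and share their depth. They describe single cells of 8 mice and carry no test.

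Across the 8 mice *Hspa1a* passed an adjusted p of 0.05 with neither list in any of 3 cell classes, in the kept cells, on the scale of log2(CPM + 1), with p-values from two-sided exact permutation tests adjusted over 6 relations. In C1qa-low cells it was higher in mice with more summed immediate early transcripts, with Pearson's r = 0.869 (exact permutation p = 0.00875, adjusted p = 0.0525) and Spearman's rho = 0.81 (exact permutation p = 0.0218, adjusted p = 0.11). With all deposited cells r was 0.874, which passed (exact permutation, adjusted p = 0.0496), while rho did not (exact permutation, adjusted p = 0.131). With the median of the list genes in place of their sum r was 0.678 (exact permutation p = 0.0604, adjusted p = 0.362) and rho 0.5. For the sum in kept cells r was 0.654 within the groups. Without the 2 farthest mice, E0771-Res2 replicates 2 and 3, r was 0.642 (exact permutation p = 0.212, rho = 0.6) and -0.229 within the groups.

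With the summed hypoxia and glycolysis genes of C1qa-low cells r was -0.158 (exact permutation p = 0.705, adjusted p = 0.846) and rho -0.214 (exact permutation p = 0.619, adjusted p = 0.743), and r was 0.226 without the 2 farthest mice. In C1qa-high cells r with immediate early genes was -0.0646 (exact permutation p = 0.88, adjusted p = 0.88) and rho -0.0238 (exact permutation p = 0.977, adjusted p = 0.977). With hypoxia genes there r was 0.53 (exact permutation p = 0.165, adjusted p = 0.33) and rho 0.452 (exact permutation p = 0.267, adjusted p = 0.535), and r was 0.00358 within the groups. In lymphoid cells r with immediate early genes was 0.656 (exact permutation p = 0.0788, adjusted p = 0.236) and rho 0.762 (exact permutation p = 0.0368, adjusted p = 0.11). With hypoxia genes there r was -0.471 (exact permutation p = 0.24, adjusted p = 0.359) and rho -0.381 (exact permutation p = 0.36, adjusted p = 0.54). Without the 2 farthest mice the r values were -0.0243 and 0.305 in C1qa-high cells and 0.567 and -0.0515 in lymphoid cells, for immediate early and hypoxia genes in turn. In C1qa-low cells the hypoxia sums spanned 6751 to 8166 CPM between mice, while *Hspa1a* spanned 156 to 604 CPM.

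**Figure D5:**
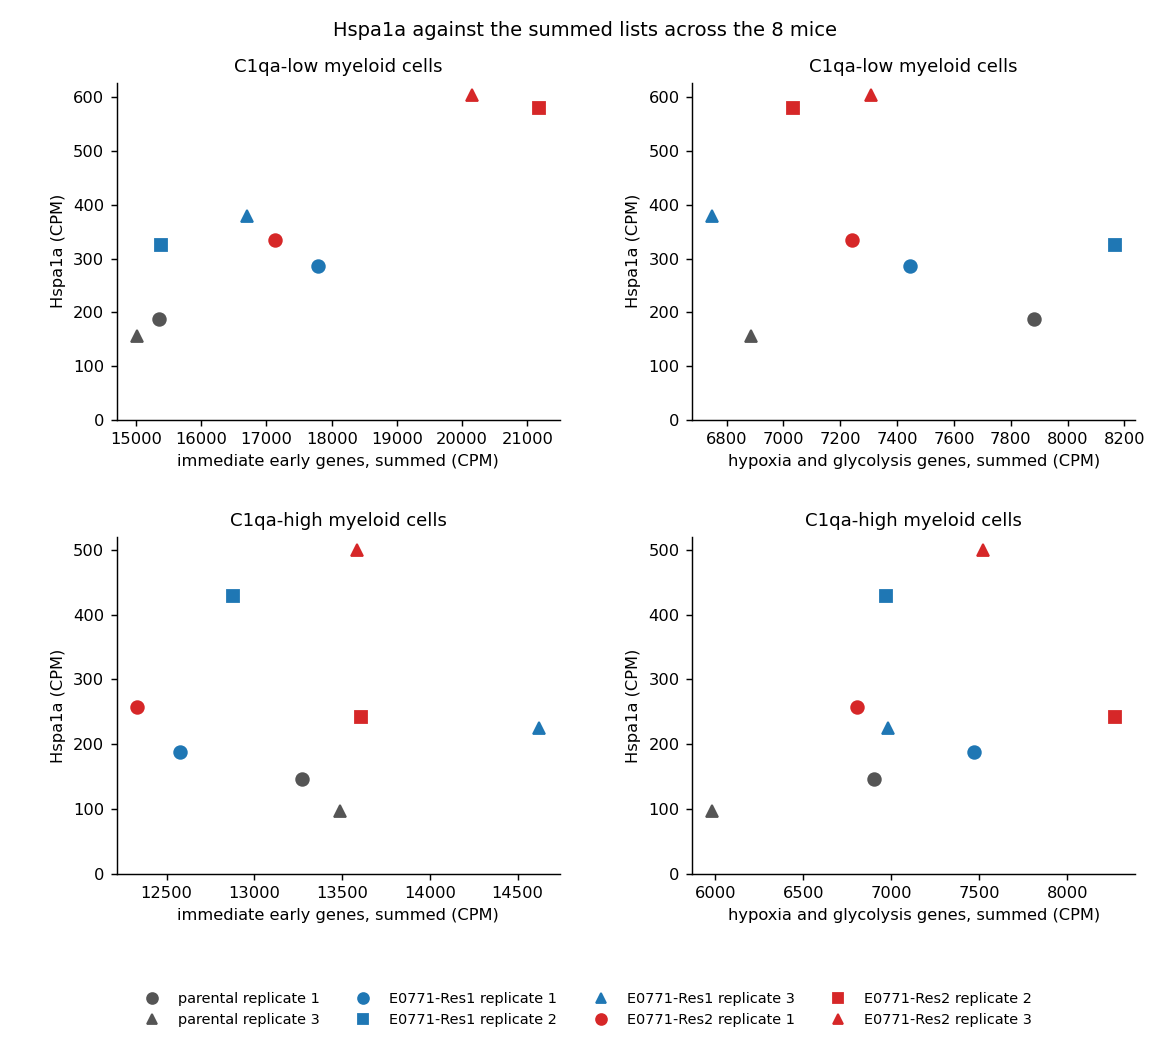
*Hspa1a* (y axes, CPM) against the summed immediate early genes (left) and the summed hypoxia and glycolysis genes (right, x axes in CPM, not starting at 0) in C1qa-low (top) and C1qa-high (bottom) myeloid cells, with 1 point per mouse. At top left the points rise with r = 0.869 (on log2(CPM + 1)), and E0771-Res2 replicates 2 and 3 stand at the upper right. At top right r is -0.158.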

How the data were processed

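The authors deposited UMI counts per gene and cell from the 10x Chromium 3′ v3.1 kit with sample multiplexing, and the submitters' processing notes name Cell Ranger, Seurat and the mm10 genome, with no versions. Cells with 500 to 6000 genes and under 10% mitochondrial UMIs were kept, and mt-, Rpl, Rps and Gm-prefixed genes were left out of the sums, as 8652 of 32285 genes with 20.6% of the counts. Lymphoid cells had at least 3 lymphoid marker UMIs and more of these than myeloid ones. Myeloid cells had at least 5 myeloid marker UMIs with lymphoid markers at most 10% of them. Counts were summed per mouse and class (at least 10 cells) and fitted with edgeR 4.0.16 (quasi-likelihood test, TMM scaling, filterByExpr, Benjamini-Hochberg adjustment, all 3 lines in 1 fit) in R 4.3.3, with DESeq2 1.42.0 as an alternative. Hspa1-high and Hspa1-low cells were drawn from cells thinned at random to 2000 UMIs, summed with their full counts, and fitted with the mouse as a block in at least 4 mice. The SE given with an edgeR result was derived from its test, as the absolute log2 change divided by the square root of the F statistic. Exact permutation tests used scipy 1.17.1.

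The members and lists were chosen with earlier results of these data known. The tests between lines, and those of the lists in Hspa1-high cells, are therefore not independent of that choice. Text was limited to the members, to the 5 genes of each other list with the largest change among those with adjusted p under 0.05 per direction, and, for Hspa1-high cells, to the 10 largest rises and 5 largest falls among other genes (average log2 CPM at least 5, same sign in every mouse). Other list genes that are named, such as *Vegfa*, *Junb*, *Hspa4*, *Hsf1*, *Hsp90b1*, *Pgk1*, *Ldha*, *Atf3* and *Ier3*, were chosen after their values were seen. A list gene that the rule would name is not reported here. Scrublet marked 30 cells (0.262%) at its automatic threshold, and whether it missed doublets was not tested. No doublets were removed. The size of change that these fits could miss, at the spread seen between these mice, was not tested. Intervals and limits cover counting error only.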

Additional observations from a re-analysis of the deposited data

Results flagged for a closer look

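Each member, class ratio and pair of lines was searched for ratios of opposite sign, and how many would arise by chance was not tested. In 3 cases every mouse of 1 line moved one way between cell classes and every mouse of another line the opposite way. *Hsp90aa1* in C1qa-high over C1qa-low myeloid cells had a mean log2 ratio of -0.12 (parental mice), 0.13 (mice with E0771-Res1) and -0.12 (mice with E0771-Res2), a difference of 0.25 from parental to E0771-Res1 and of -0.25 from E0771-Res1 to E0771-Res2. *Hspa8* in lymphoid over C1qa-low myeloid cells had a mean log2 ratio of -0.11 in E0771-Res1 and 0.31 in E0771-Res2 mice, a difference of 0.41. Some of these signs rest on very small log2 ratios. For *Hsp90aa1* they were 0.015 in E0771-Res1 replicate 1 and -0.009 in E0771-Res2 replicate 3. For *Hspa8* the ratio was -0.003 in E0771-Res1 replicate 1. The differences between lines were not tested.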

How the results depend on the processing

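Counts of the 10 members called moved in these settings. Counts of all genes called changed too, as with no filter on low counts from 4 to 243 for E0771-Res1 against parental over all kept cells. DESeq2 called 1 for E0771-Res1 against parental over all kept, C1qa-high and C1qa-low cells, and 2 between the resistant lines over all kept cells. With no filter on low counts, E0771-Res1 against parental gave 3 (all kept), 3 (lymphoid), 5 (C1qa-high) and 4 (C1qa-low). E0771-Res2 against parental gave 4, 2 and 3 (all kept, lymphoid, C1qa-high), where 977, 54 and 594 of all genes were called. The resistant lines gave 3, 2 and 3 (all kept, C1qa-high, C1qa-low), where 928, 681 and 753 of all genes were called. With only the 2 groups compared, C1qa-high cells gave 2 for E0771-Res2 against parental (422 of all genes). C1qa-low cells gave 2 for E0771-Res1 against parental (5 of all genes) and 0 between the resistant lines (277 of all genes). With the *C1qa* gate per 10000 UMIs, C1qa-high cells gave 1 for E0771-Res2 against parental. Without the 5% highest Scrublet scores, C1qa-low cells gave 2 between the resistant lines (344 of all genes). Replicate numbers did not pair the mice (correlation of deviations -0.0760 to 0.126 for same-numbered mice, -0.120 to 0.0760 for others). A replicate block gave 2 in C1qa-low and 1 over all kept cells between the resistant lines (423 and 513 of all genes).

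In Hspa1-high C1qa-low cells the *C1qa* gate per 10000 UMIs gave 8 hypoxia, 4 immediate early, 3 other chaperone and 2 ER genes, Hspa1-high from 10 UMIs gave 3 immediate early and 2 ER genes, and no filter or thinning to 1000 UMIs gave 2 ER genes each. These 4 settings called 87, 130, 242 and 135 of all genes in turn, against 162 in the main fit. In C1qa-high cells from 3 UMIs the *C1qa* gate per 10000 UMIs gave 2 ER genes, and thinning to 1000 gave 5 hypoxia, 3 immediate early and 3 ER genes. Of all genes, that gate called 86 and thinning to 1000 called 67. The fit from 3 UMIs itself called 66 upwards and 8 downwards. Unthinned, the Hspa1-high share of C1qa-high minus C1qa-low cells was 3.71 points. The correlation of *Hspa1a* with hypoxia genes was -0.211 in C1qa-high and 0.154 in lymphoid cells by the median of the list, and 0.226 in C1qa-low cells without the 2 farthest mice. With all deposited cells the C1qa-low immediate early correlation was 0.874 and passed the threshold (adjusted exact permutation p = 0.0496). By the median of the list it was 0.678 and did not pass (adjusted exact permutation p = 0.362).

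With each mouse left out in turn, members called ranged from 0 to 3 (E0771-Res2 against parental, all kept), 1 to 4 (C1qa-low) and 0 to 1 (C1qa-high), from 0 to 2 for E0771-Res1 against parental in C1qa-high and in C1qa-low cells, and from 0 to 1 (all kept) and 0 to 2 (C1qa-low) between the resistant lines. List genes called in Hspa1-high cells ranged from 11 to 15 (hypoxia), 3 to 8 (immediate early), 3 to 4 (ER) and 5 to 5 (other chaperones) in C1qa-low cells, from 19 to 23, 6 to 10, 4 to 5 and 5 to 9 in all myeloid cells, and from 3 to 11, 4 to 6, 0 to 2 and 2 to 4 in C1qa-high cells from 3 UMIs. Counts over all genes are not given for these fits, so the ranges do not show whether the listed genes or the whole fit moved. The causes of these shifts were not tested. Fits of Hspa1-high cells in lymphoid cells, and from 5 UMIs in C1qa-high cells, were not run for lack of cells.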

Other observations

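Among genes outside the lists, Hspa1-high C1qa-low cells had more *Hmox1*, which encodes the haem-degrading enzyme heme oxygenase 1 (log2 change 1.51, adjusted p = 7.70e-08), *Polr2l*, an RNA polymerase subunit (1.61), *Id1*, an inhibitor of helix-loop-helix factors (1.49), and *Chka*, a choline kinase (1.41; edgeR, higher in 6 of 6 mice each). *Chil3*, a chitinase-like protein of monocytes and macrophages, fell (-1.14, adjusted p = 2.42e-05, edgeR), as did *Syngr1*, *Itpripl2*, *Selenom* and *AI504432* (-1.29, -1.29, -1.06 and -0.96), each in 6 of 6 mice.

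Over all myeloid cells the chemokine *Ccl12* and the cytokine *Il1b* (-0.77) fell in 8 of 8 mice, and *Rhob* (1.47), the glycolysis regulator *Pfkfb3* (1.20) and *Id3* (1.20) rose in 8 of 8. In C1qa-high cells from 3 UMIs the monocyte gene *Ly6c2* (-0.74) and the chemokines *Ccl7* (-0.61) and *Ccl2* (-0.60) fell, and *Hspb1* (4.26), *Slc2a1* (1.46) and *Bag3* (1.12) rose, each in 6 of 6 mice. All passed an adjusted p of 0.05 in edgeR.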
